A study of Mus musculus with 6 samples.

Results

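Cadherins and protocadherins, with the catenins that bind cadherin tails, were examined in gonadal somatic cells of mouse embryos at embryonic day E11.5. Members were taken by name: symbols beginning with Cdh and a digit (Cdh5 left out), with Pcdh, or with Fat and a digit, plus Celsr1, Celsr2, Dchs1, Ctnna1, Ctnna2, Ctnnd1 and Ctnnd2. There were 50 members among the 11736 genes in the tables. Of the 101 protein-coding genes with such names in GENCODE M21, 49 were listed, and the other member was Pcdhgb8, which that annotation calls a polymorphic pseudogene. Ctnnd2, Cdh13, the alpha protocadherins and every beta protocadherin other than Pcdhb20 were among the genes not analysed here.

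The comparison was between 3 Cdyl-KO and 3 Cdyl-Het libraries, all from XY (male) C57BL/6 embryos. The names stand for knockout and heterozygous loss of Cdyl, a chromodomain protein that takes part in repressing transcription. Both groups carried Nr5a1-hCD271, a transgene genotype whose surface marker was used to isolate the cells on magnetic beads, so the comparison group is not wild type and carries the marker too. Neither the form of the Cdyl mutation nor any pooling of embryos is stated in the labels, so p-values measure the spread between these libraries, which may be technical.

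Cadherins are calcium-dependent adhesion proteins of the cell surface. Classical cadherins join like cells and hold the actin cytoskeleton through beta-, delta- and alpha-catenins, and the set of cadherins on a cell helps to sort epithelium from mesenchyme. Protocadherins do not bind catenins in this way: the unclustered ones are best known from the nervous system and from embryonic cell movement, and the clustered ones form combinatorial codes on neurons. Fat and Dachsous cadherins are very large receptors and ligands that set tissue polarity and growth, and Celsr cadherins orient cells within a sheet.

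Levels are given as scaled RPKM, the deposited reads per kilobase of gene corrected for depth, divided by a scaling factor of each library. Changes are Cdyl-KO minus Cdyl-Het of log2(scaled RPKM + 1), so that changes of low genes come out too small. They were tested with limma over all genes, with Benjamini-Hochberg adjustment and a threshold of 0.05. The depth implied by the steps between low values was 34.6 to 45.1 M reads per library, and the members with the fewest reads, Cdh9 and Cdh22, then rest on 48 to 294 and 86 to 304 reads per library. Cdyl itself was at 7.77, 8.06 and 8.22 scaled RPKM in Cdyl-Het against 6.77, 6.93 and 7.07 in Cdyl-KO. Every Cdyl-KO library was below every Cdyl-Het library, with a log2 change of -0.19 (SE 0.05) and a limma adjusted p of 0.0702, which is above the threshold and so no firm check of the labels.

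Most cadherin genes did not pass the test. Of the 50 members, 3 rose in Cdyl-KO (6% of them), 0 fell and 47 did not pass. Over all genes 4.67% rose and 2.83% fell, 7.5% in either direction, so the members' shares were near the background. The 3 that rose were the protocadherins Pcdh18 and Pcdh20 and the classical cadherin Cdh3. Cdh9, Cdh22 and Ctnna2 were listed only through Cdyl-KO, as described below, so counts are also given for the 47 members with deposited means of at least 1 in both groups. At an unadjusted limma p under 0.05, 10 of these 47 were higher and 8 lower (13 and 8 with those 3), while over all genes the shares were 14.2% and 11.2% (25.4% in either direction).

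Most families had changes on both sides of 0. All 6 unclustered protocadherins had changes above 0 (0.26 to 0.68), with scaling and without it (0.16 to 0.55). Of the 22 gamma protocadherins, 20 had changes below 0 (-0.36 to 0.15), and 21 had them without scaling. Of the 8 classical cadherins other than Cdh9 and Cdh22, 5 had changes above 0 and 3 below; without scaling 3 were above and 5 below. The median change was 0.36 for unclustered protocadherins, 0.03 for these 8 classical cadherins and -0.10 for gamma protocadherins, against 0.00 for all genes and -0.04 for the 47 members. Without scaling these family medians were 0.27, -0.10 and -0.20, against -0.12 for all genes. Among the 6 classical cadherins with a mean of at least 2 scaled RPKM, 3 lay above and 3 below 0, with a median of -0.03. The medians are descriptions and carry no test.

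The groups of libraries did not overlap in 26 members, of which 10 were higher and 16 lower in Cdyl-KO (20% and 32% of the 50; 9 and 16 of the 47). Over all genes 31.6% did not overlap, 17.1% being higher and 14.5% lower. Of the 16 lower members, 11 were gamma protocadherins. Among the 2934 genes of lowest level, 1 of 4 equal groups, which hold 15 of the 22 gamma protocadherins, 20% were lower without overlap and the median change was -0.09.

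**Figure D1:**
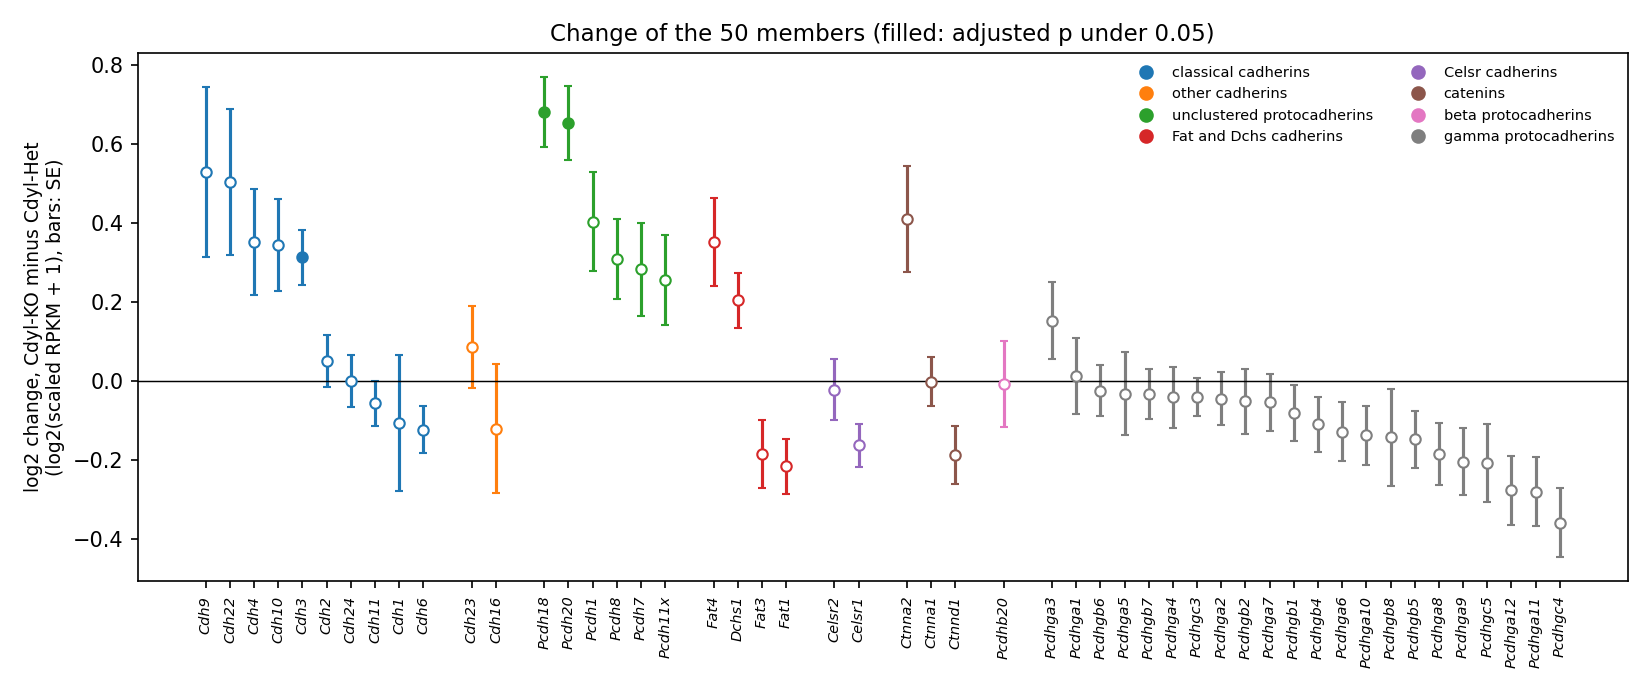
Log2 change (Cdyl-KO minus Cdyl-Het, on log2(scaled RPKM + 1)) of each of the 50 members on the vertical axis, sorted within families along the horizontal axis. Points are limma estimates, bars are their SE, and filled points passed the threshold of 0.05 on the adjusted p. Only Pcdh18, Pcdh20 and Cdh3 are filled; all 6 unclustered protocadherins lie above 0 and 20 of 22 gamma protocadherins lie below it (21 without scaling).

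The listing of genes favoured some rises. Every listed gene had a deposited mean of at least 1.005 in at least 1 group. Cdh9, Cdh22 and Ctnna2 had Cdyl-Het means below 1 and so were listed only through Cdyl-KO, so a lower mean in Cdyl-KO could not have been listed for them. Over all genes in the tables, 100 had a deposited mean below 1 in Cdyl-Het and 0 had one in Cdyl-KO. No member was below 1 in Cdyl-KO either. A gene that fell below 1 in Cdyl-KO would thus be missing from the tables. This limit also bears on the 47 members and on low unclustered protocadherins. Among these, Pcdh1 and Pcdh8 had deposited Cdyl-Het means of 1.42 and 1.21.

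By level per gene length, the catenin Ctnna1 stood far above the adhesion molecules, with a mean of 88.4 scaled RPKM over the 6 libraries (82.4 to 92.5). This alpha-catenin links cadherin complexes to actin, and its partner Ctnnb1 (beta-catenin, not a member) had means of 93.8 and 93.0 in the groups. Fat1 (25.9 to 34.6) and Pcdh18 (19.3 to 36.5) followed, then Ctnnd1 (20.3 to 25.9), Cdh3 (16.1 to 23.2) and Pcdhgc3 (15.3 to 16.6). Neighbours from Fat1 to Pcdhgc3 in this order overlapped in range over the 6 libraries, but some did not within a group. Fat1 was above Pcdh18 in Cdyl-Het (29.98 to 34.6 against 19.3 to 24.8). In Cdyl-KO it was below Pcdh18 (25.9 to 28.7 against 34.5 to 36.5). Ctnnd1 was above Cdh3 in Cdyl-Het (21.3 to 25.9 against 16.1 to 19.2). In Cdyl-KO it was below Cdh3 (20.3 to 20.8 against 21.7 to 23.2). Below Pcdhgc3, Cdh11 (13.6 to 15.2) overlapped Cdh2 (12.6 to 14.4), and Dchs1 (9.14 to 12.3) overlapped Fat4 (7.30 to 11.2). The other 40 members had means under 6 scaled RPKM, from 5.71 for Cdh24 to 1.08 for Cdh9, and each overlapped the next in the order.

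Pcdh18, a delta protocadherin, had the largest log2 change among the members. It was at 24.8, 21.5 and 19.3 scaled RPKM across Cdyl-Het against 36.5, 35.3 and 34.5 across Cdyl-KO. Every Cdyl-KO library lay above every Cdyl-Het library, and the Cdyl-Het values were the more spread. The means were 21.8 ± 2.75 and 35.4 ± 1.03 (± SD, n = 3 each), a ratio of 1.62, with a log2 change of 0.68 (SE 0.09, limma adjusted p = 0.00871). The call held when any 1 library was left out (limma adjusted p = 0.00649 to 0.0438). Pcdh18 lies on chromosome 3 (mm10, 49743296 to 49757325, minus strand).

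Pcdh20, a protocadherin known mainly from neurons, rose from a much lower level. It was at 1.81, 1.56 and 1.40 scaled RPKM in Cdyl-Het against 2.82, 3.28 and 3.09 in Cdyl-KO, again without overlap. The means were 1.59 ± 0.210 and 3.07 ± 0.232 (± SD, n = 3 each), a ratio of 1.93, and the log2 change was 0.65 (SE 0.09, limma adjusted p = 0.0114). With a pseudocount of 0.1 in place of 1 the log2 change was 0.91. It held without any 1 library (limma adjusted p = 0.0151 to 0.0471). Pcdh20 lies on chromosome 14 (88464743 to 88471396, minus strand).

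The start-site windows of these genes are shown because they were the members with the firmest rises. They are RefSeq windows on GRCm38.p6, which is mm10, from 250 bases before to 50 after a transcription start, and 16 of the 50 members have such a window; Cdh3 is not among them. Both are on the minus strand and read 5′ to 3′ in the gene's direction. Capitals mark CCAAT on either strand and, in Pcdh18, the GC box GGGCGG.
Pcdh18, chr3:49757267-49757566: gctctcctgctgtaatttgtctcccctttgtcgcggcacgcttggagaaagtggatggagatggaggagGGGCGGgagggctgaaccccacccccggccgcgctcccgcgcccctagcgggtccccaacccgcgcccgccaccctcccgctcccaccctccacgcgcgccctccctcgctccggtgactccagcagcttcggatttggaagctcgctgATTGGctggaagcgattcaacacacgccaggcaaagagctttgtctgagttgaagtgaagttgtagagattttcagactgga
Pcdh20, chr14:88471347-88471646: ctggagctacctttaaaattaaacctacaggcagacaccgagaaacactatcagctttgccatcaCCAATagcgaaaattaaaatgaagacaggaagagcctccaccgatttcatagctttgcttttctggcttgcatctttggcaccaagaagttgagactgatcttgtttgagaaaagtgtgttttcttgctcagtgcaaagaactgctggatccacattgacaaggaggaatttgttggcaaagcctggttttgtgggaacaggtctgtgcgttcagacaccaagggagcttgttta

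The windows of Pcdh18 and Pcdh20 had little in common in base composition. Pcdh18 had 63.0% G and C and 23 CpG dinucleotides, against 43.7% and 4 in Pcdh20, and the medians over all 32851 windows were 52.7% and 7. CCAAT began 32 bases before the start of Pcdh18, on the opposite strand, and 185 bases before the start of Pcdh20, on the gene's strand; 37.4% of all windows hold it. GGGCGG, at 181 bases before the Pcdh18 start, is in 35.7% of all windows. Among the 17 windows of members, 6 hold CCAAT and 5 hold GGGCGG.

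Searched on both strands, the E-box CAGGTG (20.2% of all windows) occurred in the windows of Celsr2, Pcdh7, Ctnna2 and Fat1. The left arm TTCAGCACC of the RE1 element (0.4% of all windows) occurred in that of Cdh9, and its right arm GGACAGCGC (0.4%) in no member's window. TATAAA (13.6%) was found for Ctnnd1 and Pcdh8 and CTTTGA (16%) for Pcdh7, while CACGTG (7.2%) was not found. None of these 6 was in the Pcdh18 or Pcdh20 window. The matches are letters in these windows only.

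The other 4 unclustered protocadherins had higher means in Cdyl-KO but did not pass. Pcdh1, an adhesion protein of epithelia, was at 1.35, 1.06 and 1.64 scaled RPKM in Cdyl-Het against 2.06, 2.39 and 1.85 in Cdyl-KO (log2 change 0.40, SE 0.13, limma adjusted p = 0.0994), without overlap. Pcdh8, known from somite formation, was at 1.26, 1.08 and 1.13 against 1.61, 1.83 and 1.57 (log2 change 0.31, SE 0.10, limma adjusted p = 0.112), also without overlap. In Pcdh7 and the X-linked Pcdh11x the groups overlapped: the highest Cdyl-Het libraries (3.54 and 2.07) stood above the lowest Cdyl-KO libraries (3.42 and 2.02). Their limma adjusted p-values were 0.188 and 0.213.

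**Figure D2:**
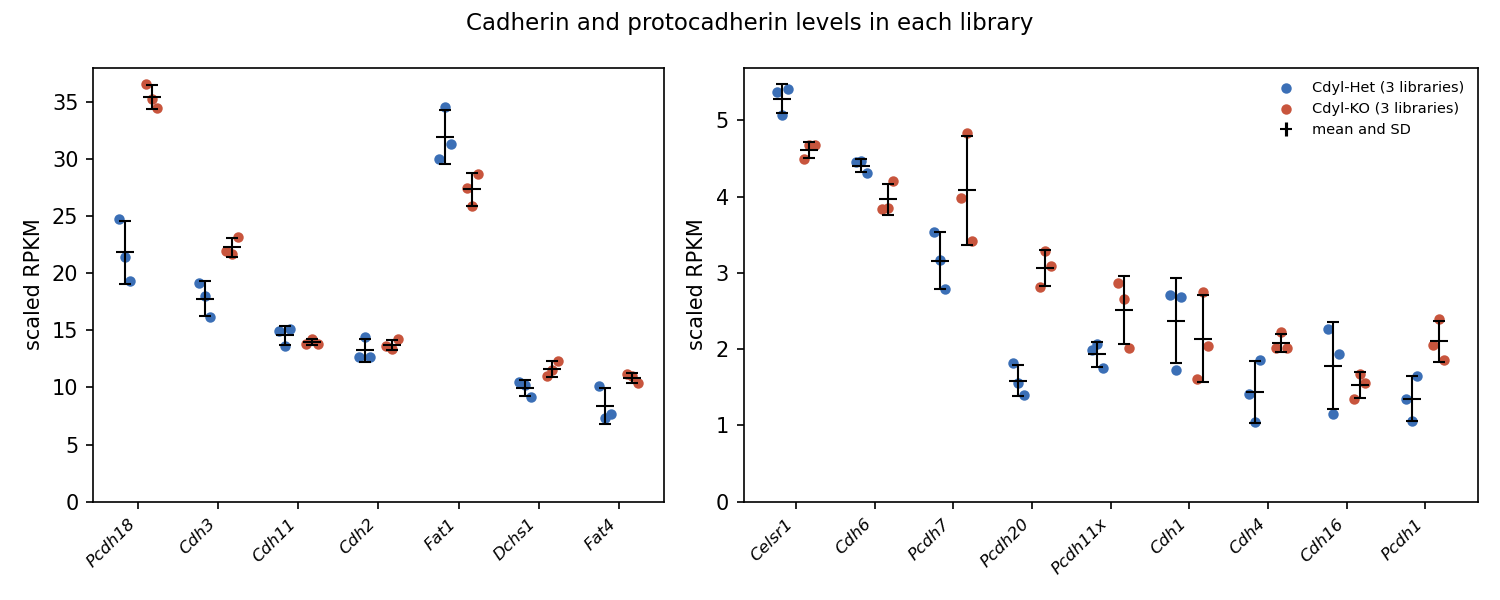
Scaled RPKM of 16 members in each library (blue, 3 Cdyl-Het; red, 3 Cdyl-KO), with group mean and SD in black; the 2 panels hold members of higher and lower level and both axes start at 0. Pcdh18, Pcdh20 and Cdh3 show the called rises, Fat1, Celsr1 and Cdh6 sit lower in Cdyl-KO without overlap, and Cdh1, Cdh2, Cdh11 and Cdh16 overlap.

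Among classical cadherins, Cdh3 (P-cadherin, an adhesion molecule of epithelia and placenta) was the most abundant and the only member to pass. It was at 19.2, 18.03 and 16.1 scaled RPKM in Cdyl-Het against 21.9, 21.7 and 23.2 in Cdyl-KO. The groups did not overlap, and the means were 17.8 ± 1.52 and 22.3 ± 0.808 (± SD, n = 3 each), a ratio of 1.25 (log2 change 0.31, SE 0.07, limma adjusted p = 0.0432). The call was fragile: leaving out Cdyl-Het replicate 2 or 3 or any Cdyl-KO replicate gave limma adjusted p-values of 0.101, 0.0947, 0.107, 0.0908 and 0.115. On the deposited values without scaling the log2 change was 0.17 (limma adjusted p = 0.0956).

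Cdh3 made up 30.1%, 29.3% and 26.1% of the summed scaled RPKM of the 10 classical cadherins in Cdyl-Het against 32.4%, 31.5% and 33.2% in Cdyl-KO. Cdh3, Cdh11 and Cdh2 together held 71.1% to 75.0% of that sum in every library. The summed level itself was 61.4 to 63.6 in Cdyl-Het and 67.7 to 69.9 in Cdyl-KO. It includes Cdh3, the gene that passed, with means of 17.8 and 22.3. It also includes Cdh9 (means 0.696 and 1.47) and Cdh22 (0.781 and 1.54), which were listed only through Cdyl-KO. The difference between these sums is therefore no separate result about the family.

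Cdh1 (E-cadherin), the neighbour of Cdh3 on chromosome 8, did not pass the test. The genes lie in the same direction with 46054 bases between them (Cdh3 106510891 to 106557297, Cdh1 106603351 to 106670246). Cdh1 was at 2.71, 1.73 and 2.69 scaled RPKM in Cdyl-Het against 1.61, 2.75 and 2.04 in Cdyl-KO, with full overlap (log2 change -0.11, SE 0.17, limma adjusted p = 0.741). The difference between the changes of Cdh3 and Cdh1 was not tested. Cdh16, a cadherin of kidney and mesonephric duct epithelium, likewise overlapped, at 2.26, 1.15 and 1.93 against 1.34, 1.67 and 1.56 (log2 change -0.12, SE 0.16, limma adjusted p = 0.689). In both genes Cdyl-Het replicate 2 was the low library of its group.

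Cdh2 and Cdh11, the cadherins of mesenchyme and of many embryonic epithelia, did not pass either, and the change of Cdh2 was above 0 with scaling and below 0 without it. Cdh2 (N-cadherin) was at 12.7, 14.4 and 12.6 scaled RPKM in Cdyl-Het against 13.6, 13.3 and 14.2 in Cdyl-KO (log2 change 0.05, SE 0.07, limma adjusted p = 0.669). Cdh11 was at 14.95, 13.6 and 15.2 against 13.8, 14.2 and 13.8 (log2 change -0.06, SE 0.06, limma adjusted p = 0.575). Both overlapped, and misses of this kind do not show that the genes were equal.

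Of the low cadherins, Cdh4 (R-cadherin) was at 1.41, 1.04 and 1.86 scaled RPKM in Cdyl-Het against 2.02, 2.22 and 2.01 in Cdyl-KO, without overlap (log2 change 0.35, SE 0.13, limma adjusted p = 0.158). Cdh10 also did not overlap (1.29 ± 0.237 and 1.90 ± 0.230, ± SD, n = 3 each; limma adjusted p = 0.123). Cdh9 was at 0.375, 0.929 and 0.783 against 1.99, 1.55 and 0.863, and Cdh22 at 0.747, 0.570 and 1.03 against 0.985, 1.69 and 1.96. Both overlapped through 1 low Cdyl-KO library, and their limma adjusted p-values were 0.180 and 0.145. Cdh6, a cadherin of the developing kidney, was lower without overlap (4.41 ± 0.0839 and 3.97 ± 0.205), with a limma adjusted p of 0.243. Cdh24 was at 5.71 ± 0.239 and 5.72 ± 0.417, and Cdh23, a cadherin of hair-cell tip links, at 2.28 ± 0.340 and 2.48 ± 0.252.

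The Fat and Dachsous cadherins split by gene. Fat4 is the receptor of Dchs1, and both were higher in every Cdyl-KO library, but neither passed. Fat4 was at 10.2, 7.30 and 7.65 scaled RPKM in Cdyl-Het against 11.2, 11.005 and 10.4 in Cdyl-KO (log2 change 0.35, SE 0.11, limma adjusted p = 0.105). Cdyl-Het replicate 1 lay close to the Cdyl-KO libraries. With any 1 library left out, the log2 change of Fat4 ran from 0.27 to 0.48. The limma adjusted p ran from 0.0147 to 0.263. Only the fit without Cdyl-Het replicate 1 passed, and it was 1 of 14 alternatives. Dchs1 was at 10.5, 10.2 and 9.14 against 10.98, 11.49 and 12.3 (log2 change 0.20, SE 0.07, limma adjusted p = 0.124).

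Fat1, which acts on actin and on Hippo signalling, was lower in every Cdyl-KO library. It was at 29.98, 34.6 and 31.3 scaled RPKM in Cdyl-Het against 27.4, 25.9 and 28.7 in Cdyl-KO (log2 change -0.22, SE 0.07, limma adjusted p = 0.107). Fat3 was also lower without overlap (2.21 ± 0.118 and 1.82 ± 0.156, ± SD, n = 3 each; limma adjusted p = 0.228). The ratio of Fat4 to Fat1 was 0.339, 0.211 and 0.244 across Cdyl-Het against 0.407, 0.425 and 0.361 across Cdyl-KO. It restates the opposite changes of these genes, neither of which passed. The ratio of Dchs1 to Fat4 overlapped, at 1.035, 1.396 and 1.196 against 0.984, 1.044 and 1.189. Neither ratio was tested.

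Celsr1, a planar polarity cadherin, was at 5.37, 5.07 and 5.41 scaled RPKM in Cdyl-Het against 4.49, 4.67 and 4.68 in Cdyl-KO. The groups did not overlap, but the change did not pass (log2 change -0.16, SE 0.05, limma adjusted p = 0.119). Celsr2 was at 2.40, 2.56 and 2.83 against 2.44, 2.62 and 2.56, with overlap (limma adjusted p = 0.887).

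Among the catenins, Ctnna1 was at 90.4, 92.5 and 82.4 scaled RPKM in Cdyl-Het against 91.3, 86.2 and 87.3 in Cdyl-KO, with overlap (limma adjusted p = 0.990). Ctnnd1, which keeps cadherins at the cell surface, was at 21.3, 25.9 and 23.4 against 20.4, 20.3 and 20.8. Its groups did not overlap, and it did not pass (log2 change -0.19, SE 0.07, limma adjusted p = 0.164). Ctnna2, the alpha-catenin of neurons, was at 0.804, 0.798 and 1.22 against 1.51, 1.40 and 1.81, without overlap (log2 change 0.41, SE 0.13, limma adjusted p = 0.111).

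All 22 gamma protocadherin genes of the annotation were listed. They lie in a row on chromosome 18 (37661793 to 37841873, plus strand). Each has its own first exon and all share the same last exons. The 2116 bases common to every gene are 27.7% to 45.9% of a gene's exonic length. From 27.8% to 66.8% is shared with at least 1 other gamma gene. The highest shares are in Pcdhga4 (66.8%) and Pcdhgb1 (54.6%), which also overlap each other outside the common bases. The labels do not say how reads in shared exons were assigned. The 22 values are therefore not independent, and each is uncertain. Pcdhgc3 was nonetheless 10.99 times as high as Pcdhgc5 over all libraries.

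None of the gamma genes passed the limma test; at an unadjusted p under 0.05, 5 were lower and 0 higher. In 11 of 22 the Cdyl-KO libraries were lower without overlap. Pcdhgc4 had the lowest adjusted p. It was at 2.56, 3.18 and 2.79 scaled RPKM in Cdyl-Het against 1.89, 1.99 and 2.10 in Cdyl-KO (log2 change -0.36, SE 0.09, limma adjusted p = 0.0531). With another reference library for the scaling its limma adjusted p was 0.0499. Pcdhga11 and Pcdhga12 followed, with log2 changes of -0.28 in both and limma adjusted p-values of 0.103 and 0.104.

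The most abundant gamma gene, Pcdhgc3, was at 15.7, 16.6 and 16.2 scaled RPKM in Cdyl-Het against 15.97, 15.3 and 15.8 in Cdyl-KO, with overlap (log2 change -0.04, SE 0.05, limma adjusted p = 0.638). It held 20.5% to 21.8% of the summed level of the cluster in Cdyl-Het and 21.5% to 22.9% in Cdyl-KO. The sum of the other 21 was 58.2 to 61.2 in Cdyl-Het and 53.7 to 55.7 in Cdyl-KO. Mean levels of the other 21 ran from 1.45 for Pcdhgc5 to 5.28 for Pcdhgb6. The 1 listed gene of the neighbouring beta cluster, Pcdhb20, was at 1.24, 1.06 and 1.29 against 1.27, 1.13 and 1.14, with overlap. Pcdhga3 and Pcdhga1, both near the upstream end of the cluster, were the genes with changes above 0 (0.15 and 0.01), and that of Pcdhga1 was below 0 without scaling.

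**Figure D3:**
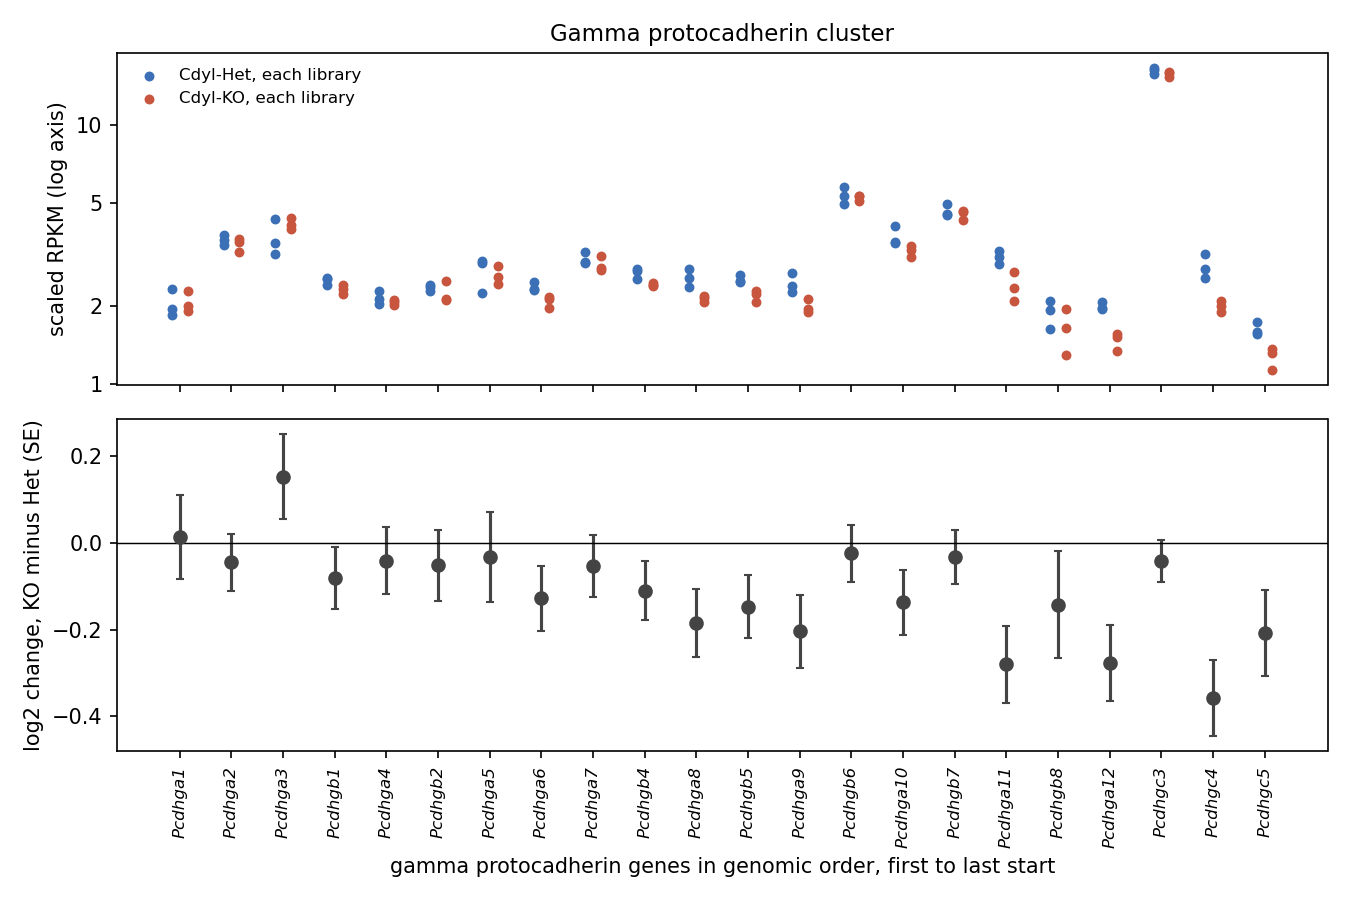
The 22 gamma protocadherin genes in genomic order along the horizontal axis. The upper panel shows scaled RPKM in each library on a log axis (blue Cdyl-Het, red Cdyl-KO) and the lower panel the log2 change with its SE. Pcdhgc3 stands at 15.3 to 16.6 scaled RPKM while the others lie below 6; the changes run from 0.15 for Pcdhga3 to -0.36 for Pcdhgc4, and none passed the test.

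The scaling of the libraries bears on every one of these directions. On the deposited values the median change of all genes was -0.12, against 0.00 after scaling, so changes here are relative to that shift. Without scaling 2 members rose (Pcdh18 and Pcdh20) and 8 fell: Fat1, Ctnnd1, Celsr1, Cdh6, Pcdhgc3, Pcdhgc4, Pcdhga11 and Pcdhga12, with limma adjusted p-values of 0.0178 to 0.0455. In the same fit 2.6% of all genes rose and 13.3% fell (15.9% in either direction), so the members that fell were again near the background share. All gamma genes but Pcdhga3, 21 of 22, were then below 0.

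**Figure D4:**
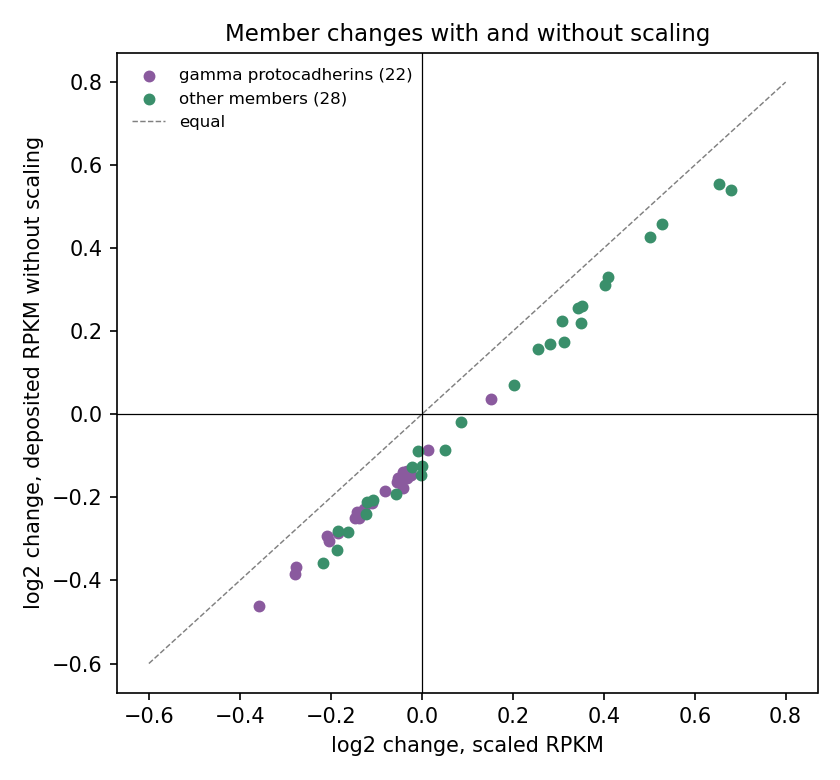
Log2 change of each member with scaling (horizontal) and on deposited RPKM without scaling (vertical); purple points are the 22 gamma protocadherins, green points the other 28 members, and the dashed line marks equal values. All points lie below the dashed line; Pcdh18 (0.68 and 0.54) and Pcdh20 (0.65 and 0.55) stay at the upper right.

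Genes that work with cadherins were taken from lists that held 116 distinct listed genes. Of these, 7 rose and 7 fell, or 6.03% and 6.03% (12.1% in either direction), beside 4.67%, 2.83% and 7.5% of all genes. Celsr3 was listed only through Cdyl-KO. Over 9 lists of such genes the median log2 change ran from -0.09 (catenin partners) to 0.22 (desmosomal genes), against 0.00 for all genes. Of 18 listed genes for catenin partners and junction linkers, 1 rose, 1 fell and 16 did not pass. Pkp2, a plakophilin of desmosomes, rose from 5.14 ± 0.262 to 6.97 ± 0.150 scaled RPKM (± SD, n = 3 each; log2 change 0.38, limma adjusted p = 0.0127) and Ablim1, an actin-binding protein, fell from 3.58 ± 0.206 to 2.36 ± 0.309 (limma adjusted p = 0.0292). Of 4 desmosomal genes, 1 rose and 3 did not pass: Dsp, the desmosomal plaque protein desmoplakin, rose from 14.6 ± 0.451 to 19.7 ± 0.352 (log2 change 0.41, SE 0.05, limma adjusted p = 0.00751).

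Of 9 listed repressors of E-cadherin, 2 fell (22.2%, beside 2.83% of all genes), 0 rose and 7 did not pass. The list did not move as a whole: 6 of its changes were above 0 and 3 below, with a median of 0.07. Snai2 fell from 33.4 ± 2.67 to 25.8 ± 2.11 scaled RPKM and Zeb1 from 11.3 ± 0.633 to 8.94 ± 0.270 (± SD, n = 3 each; log2 changes -0.36 and -0.31, limma adjusted p = 0.0447 and 0.0255). Both are repressors of Cdh1, whose own groups overlapped as given above. Of 19 listed genes of cadherin shedding and turnover, 1 fell (Ptprm, a phosphatase of cell contacts, from 2.08 ± 0.130 to 1.25 ± 0.157, limma adjusted p = 0.0392), 0 rose and 18 did not pass.

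Of 23 listed genes of Fat and Dachsous signalling and the Hippo pathway, 2 rose, 0 fell and 21 did not pass. Frmd6, an upstream Hippo component, rose from 6.56 ± 0.711 to 9.92 ± 0.169 scaled RPKM (± SD, n = 3 each; log2 change 0.54, SE 0.08, limma adjusted p = 0.0114), and Amotl2, which binds YAP, from 30.6 ± 1.87 to 38.5 ± 2.78 (limma adjusted p = 0.0442). Of 13 planar polarity partners of Celsr, 2 rose, 0 fell and 11 did not pass: Celsr3, a neuronal member of that family whose Cdyl-Het mean is below 1 (0.263 ± 0.0850 and 1.48 ± 0.182, limma adjusted p = 0.0118), and Dvl1, a Wnt transducer (5.21 ± 0.443 and 6.80 ± 0.0991, limma adjusted p = 0.0293).

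None of 14 listed regulators of clustered protocadherin promoters, such as Ctcf and Rad21, passed by limma; 0 were higher and 1 was lower at an unadjusted p under 0.05. Of 12 listed signalling partners of protocadherins, 1 rose, 2 fell and 9 did not pass. Wasf1, of the WAVE complex that some protocadherins recruit, rose from 25.8 ± 1.13 to 32.1 ± 0.741 scaled RPKM (± SD, n = 3 each; limma adjusted p = 0.0194). Cyfip2, of the same complex, fell from 4.69 ± 0.221 to 3.66 ± 0.267 (limma adjusted p = 0.0474) and the kinase Ptk2b from 7.49 ± 1.57 to 2.44 ± 0.675 (limma adjusted p = 0.0102). Of 5 cadherin-related genes that the rule leaves out, Celsr3 rose, Cdh5 (VE-cadherin of endothelium) fell from 6.84 ± 0.0966 to 4.38 ± 0.832 (limma adjusted p = 0.0296) and 3 did not pass.

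Of these 14 partner genes, Dsp, Frmd6 and Ptk2b kept their calls when any 1 library was left out. The other 11 lost them in 2 to 6 of the 6 such fits. Snai2, Zeb1 and Wasf1 kept theirs only without Cdyl-Het replicate 1, Ablim1 only without Cdyl-KO replicate 3, Amotl2 only without Cdyl-KO replicate 2 and Dvl1 only without Cdyl-Het replicate 2. Ptprm and Cyfip2 kept theirs in none. Cdh5 lost it without Cdyl-KO replicate 1 or any Cdyl-Het replicate, Pkp2 without Cdyl-Het replicate 2 or 3, and Celsr3 without Cdyl-KO replicate 2 or 3. The highest limma adjusted p was 0.133 for Snai2, 0.0880 for Zeb1, 0.106 for Ablim1, 0.126 for Amotl2, 0.0954 for Dvl1, 0.0715 for Wasf1, 0.121 for Ptprm, 0.131 for Cyfip2, 0.105 for Cdh5, 0.0536 for Pkp2 and 0.0551 for Celsr3. Amotl2, Dvl1 and Wasf1 also missed the threshold without scaling (0.0878, 0.0785 and 0.0562).

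Cell type markers moved beside these genes. The gonadal somatic list (8 of 10 markers listed; Lhx9, Emx2 and Nr0b1 rose, 0 fell) summed to 331 to 380 scaled RPKM in Cdyl-Het and 366 to 406 in Cdyl-KO. In this list 6 changes were above 0 and 2 below. The latter were Nr5a1 (log2 change -0.14) and Gata4 (-0.07), both with overlap. Coelomic epithelium markers (8 of 10 listed, 5 rose, 0 fell) summed to 177 to 213 in Cdyl-Het and 269.1 to 279.5 in Cdyl-KO. Of these markers 6 had changes above 0 and 2 below (Krt19 and Upk1b). Podxl, with means of 80.7 in Cdyl-Het and 122.3 in Cdyl-KO, held the largest part of the sum. Endothelial markers (9 of 12 listed, 4 fell, 0 rose, Cdh5 among them) summed to 35.5 to 38.8 and 22.7 to 25.8. Pre-Sertoli markers (8 of 8 listed, 5 fell, 2 rose) summed to 125 to 157 and 88.9 to 111.6.

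Mesonephric epithelium markers (8 of 12 listed, 1 rose, 0 fell, Cdh1 and Cdh16 among them) summed to 17.5 to 24.2 scaled RPKM in Cdyl-Het and 19.6 to 24.2 in Cdyl-KO. Neuron and neural crest markers (4 of 12 listed, 2 rose, 0 fell) summed to 4.02 to 7.02 and 14.9 to 18.1. Most of that difference was in Stmn3 (1.04 ± 0.371 and 8.67 ± 0.582, ± SD, n = 3 each); Tubb3 also rose, Map2 and Stmn2 did not pass, and Stmn2 was listed only through Cdyl-KO. Interstitial progenitor markers (10 of 10 listed, none passed by limma, with 3 higher and 1 lower at an unadjusted p under 0.05) summed to 179 to 196 and 196.8 to 199.7. Germ cell markers (2 of 10 listed), blood markers (5 of 10 listed) and muscle markers (4 of 8 listed) overlapped between groups in their sums. Of the muscle markers Myh11 fell (6.02 ± 0.381 to 4.04 ± 0.415, limma adjusted p = 0.0171) and 3 did not pass. None of the germ cell or blood markers passed by limma, with 0 and 1 lower at an unadjusted p under 0.05, and the changes of all 5 blood markers were below 0. No listed marker was at 0 in any library. The part of any of these cell types in the changes of the cadherins was not tested, and in bulk RNA fewer cells of a type cannot be told apart from less RNA per cell.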

How the data were processed

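Total RNA of bead-isolated gonadal somatic cells was sequenced in 3 Cdyl-Het and 3 Cdyl-KO libraries. Per the labels' protocols, libraries were made with a stranded SMARTer kit for very small inputs. The submitters' processing notes name STAR, featureCounts (Subread) 1.6.4 and mm10; no source at hand names the annotation, the strand or overlap settings or the filter on genes. The deposited values name no unit and were taken as RPKM from the values: they are not whole and sum to between 191953 and 209917 per library. Read depth was inferred from values of single-exon genes under 1500 bases, of which 88.0% to 90.0% came out as whole reads (tolerance 0.05, up to 60 reads).

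Values were divided by a trimmed mean of log ratios to the first library (30% of ratios and 5% of levels trimmed at each end). Log2(value + 1) was fitted in limma 3.58.1 (R 4.3.3) with a spread that depends on level and group as the only term, and adjusted over 11736 genes. The procedure was tested on simulated data. Full values are given for members past the threshold and for 14 members fixed by name, of which Cdh13 is not analysed here. Other members are given by range, mean or count. Pcdhgc4, Pcdhgc3, Pcdhb20, Ctnna2, Pcdh1, Pcdh8 and the low cadherins were named after their values were seen. Partner genes are those of fixed lists past the threshold. The members and lists were chosen with earlier results of these data known. Positions are from GENCODE M21 (GRCm38, which is mm10), where each of the 50 members matched a single gene. Exons of Ctnna1, Ctnnd1, Cdh9, Fat4, Dchs1, Fat1, Pcdh8 and Pcdh7 overlap those of another annotated gene, so their reads may be shared. In Ctnnd1, 4482 of 7319 exonic bases overlap Gm28635 on the same strand. The overlaps of the other named genes are on the opposite strand. Reads may also be shared in all 22 gamma genes, whose exons overlap annotated genes other than the gamma genes, such as Gm42416. Among the gamma genes the longest of these overlaps is 2613 bases of Pcdhga10, with Gm26672 on the opposite strand.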

Additional observations from a re-analysis of the deposited data

How the results depend on the processing

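Pcdh18 kept its rise in all 14 alternatives and Pcdh20 in 13; Cdh3 lost its call in 8. Over all alternatives and members, 638 values kept direction and side of the threshold, 9 lost a call, 13 gained one and 28 changed sign. The last were all in members that were not called, with main changes from -0.12 (Cdh16, SE 0.16) to 0.09 (Cdh23, SE 0.10). Without scaling, 1863 genes changed in place of 880 (305 higher and 1558 lower, against 548 and 332), 8 members were lower in place of 0 and the members' median was -0.15. Without the trend 2 members were lower, and with the reference library nearest the mean upper quartile, chosen after seeing the data, 1 was lower (Pcdhgc4). Leaving out a library gave 253 to 647 changed genes (281 and 253 without Cdyl-Het replicates 2 and 3, and 304, 410 and 449 without Cdyl-KO replicates 1, 2 and 3), 2 to 4 higher members and 0 lower members. These fits have fewer samples.

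Replicate numbers gave no sign of pairing: same-numbered deviations correlated at -0.05, -0.27 and -0.05, and no library correlated best with its own number. The deviations were taken from means of 3 libraries, so these correlations cannot exclude a pairing. The fit with a replicate block called 337 genes and 1 higher member, Pcdh18 (adjusted p = 0.0233); Pcdh20 had 0.0502 and Cdh3 0.120.

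Signs changed without scaling for Cdh2 (-0.085), Cdh23 (-0.018), Cdh24 (-0.12) and Pcdhga1 (-0.085), with scaling by the median ratio for Cdh24 (-0.0040) and with the other reference library for Cdh24 (-0.0029). With a library left out, changes spanned -0.25 to 0.017 for Cdh1, -0.29 to 0.0012 for Cdh16, -0.045 to 0.044 for Cdh24, -0.065 to 0.024 for Celsr2, -0.051 to 0.031 for Ctnna1, -0.056 to 0.022 for Pcdhb20, -0.039 to 0.077 for Pcdhga1, -0.13 to 0.021 for Pcdhga5, -0.071 to 0.019 for Pcdhgb6 and -0.057 to 0.0020 for Pcdhgb7. The cause was not tested. A filter at a mean of 2 scaled RPKM left 38 of the 50 members and moved the median of the classical cadherins from 0.18 (10 genes) to -0.03 (6 genes). The few reads of Cdh9 and Cdh22 limit their precision.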
